A study of Mus musculus with 32 samples.

Results

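The 28 genes described here encode the enzymes that carry acetyl-CoA to cholesterol and the proteins that hold or release their transcriptional activator, SREBP2. They were taken as a list of gene symbols. Every probe set that the platform annotation assigned to one of them and to no other gene, on either array, was read over the 8 genotype by sex groups. Of the 28 genes, 27 were measured, by 59 array features that named a single gene, among 18195 genes tested in all. Acat2, a cytosolic thiolase at the entry of the pathway, had no probe set under its name.

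Cells of the intestinal epithelium both absorb cholesterol and make it. The pathway condenses acetyl units to mevalonate, builds farnesyl diphosphate, joins this into squalene, closes the ring to lanosterol and trims lanosterol to cholesterol. When sterols in the endoplasmic reticulum fall, Scap escorts SREBP2 from Insig1 and Insig2 to the Golgi apparatus, where the proteases encoded by Mbtps1 and Mbtps2 free the factor to activate most genes of the pathway, and Insig1 with them.

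The data were signals of total RNA from the whole small intestine, from the base of the stomach to the cecum, of fasted 10-week-old littermates on a standard lab diet. The groups were Fabp2-/-, Fabp6-/-, Fabp2-/-;Fabp6-/- and wild-type (WT) mice on C57BL/6J, female and male, with no treatment. Fabp2 encodes a fatty acid-binding protein of enterocytes and Fabp6 the bile acid-binding protein of the distal small intestine, and both genes were disrupted in the whole animal. Each of the 8 groups held 2 pools of 2 mice, and each of the 16 pools was read on 1 array of type 430A and 1 of type 430B. Over the 100 probe sets that both types share, 14 of the 16 pools correlated best with their own other array, and WT F replicate 2 and Fabp2-/- F replicate 1 did not. Signals are on a log2 scale, so a difference of 1 is a doubling. The tissue was not sorted, so that fewer cells of a type and less RNA per cell cannot be told apart. Levels of different probe sets cannot be set against each other.

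Fabp2 lay between 8.98 and 9.98 in the pools that lacked it and between 12.58 and 13.05 in the others. Fabp6 lay between 4.80 and 5.04 in 7 of its 8 null pools, but was 9.21 in the library labelled Fabp6-/- F replicate 2, against 10.50 to 11.32 where Fabp6 was intact. Main results that rest on this library are therefore also given without it, as counts between the sexes over the genotypes and mostly as fold changes elsewhere. Its omission leaves a single pool in that group. Counts of passing genes in Fabp6-/- mice and for non-additivity are those with it, and they were not stable to its omission. The 11 enterocyte markers measured were high in every pool, with a median signal of 11.99 to 12.36.

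Signals of 9 genes of the pathway were lower in female than in male intestines. In limma's comparison of female with male mice over the 4 genotypes, these 9 of the 27 genes were lower in females at a false discovery rate (FDR) under 0.2 and 0 were higher, whereas 1.59% of all genes tested were lower and 1.19% were higher. The 9 genes were Hmgcs1, Fdps, Fdft1, Sqle, Cyp51, Msmo1, Hsd17b7, Sc5d and Insig1, with differences of -0.41 to -0.17. The fold threshold of the study, an absolute log2 fold change over 0.5, was passed by 0 of them in this comparison and by 0.176% of all genes. An unadjusted p under 0.05 was found for 13 of the 27 and for 12.6% of all genes. The difference was negative for 21 of the 27 genes, with a median of -0.11, against a median of 0.005 over all genes. Without the library labelled Fabp6-/- F replicate 2, 7 of the 9 genes passed, and Hsd17b7 and Sc5d had adjusted p = 0.213 and 0.207. Hmgcs1, Fdft1, Sqle, Cyp51 and Insig1 passed whichever pool was left out. The count fell to 5 without Fabp2-/- M replicate 1 or Fabp6-/- M replicate 1.

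For 6 genes, Fdft1, Sqle, Cyp51, Msmo1, Sc5d and Insig1, both female pools lay below both male pools in each of the 4 genotypes. Over all genes this was so for 87 of 18195, or 0.478%. Without the library labelled Fabp6-/- F replicate 2 it was so for 6 of the 27 genes and for 100 of all genes, or 0.55%. These counts read 1 probe set per gene. The other probe sets of Sc5d differed by -0.06 and -0.11 between the sexes, each with overlap in 3 genotypes. The 430B probe set of Msmo1, with a mean signal of 3.42, differed by 0.02 and overlapped in all 4. The 4 comparisons share no pools. The median difference of the 27 genes was -0.12 in Fabp2-/-, -0.08 in Fabp6-/-, -0.10 in Fabp2-/-;Fabp6-/- and -0.09 in WT mice. In Fabp6-/- mice it was -0.07 without that library, and 5 of the 27 differences changed sign, among them Idi1 (0.29). The tests of a different sex effect in gene-disrupted than in WT mice called 0 of the 27 genes, against 0.022% of all genes for Fabp2-/-, 0.0055% for Fabp6-/- and 0.0055% for Fabp2-/-;Fabp6-/-, and 2, 0 and 1 of the 27 had an unadjusted p under 0.05.

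**Figure D1:**
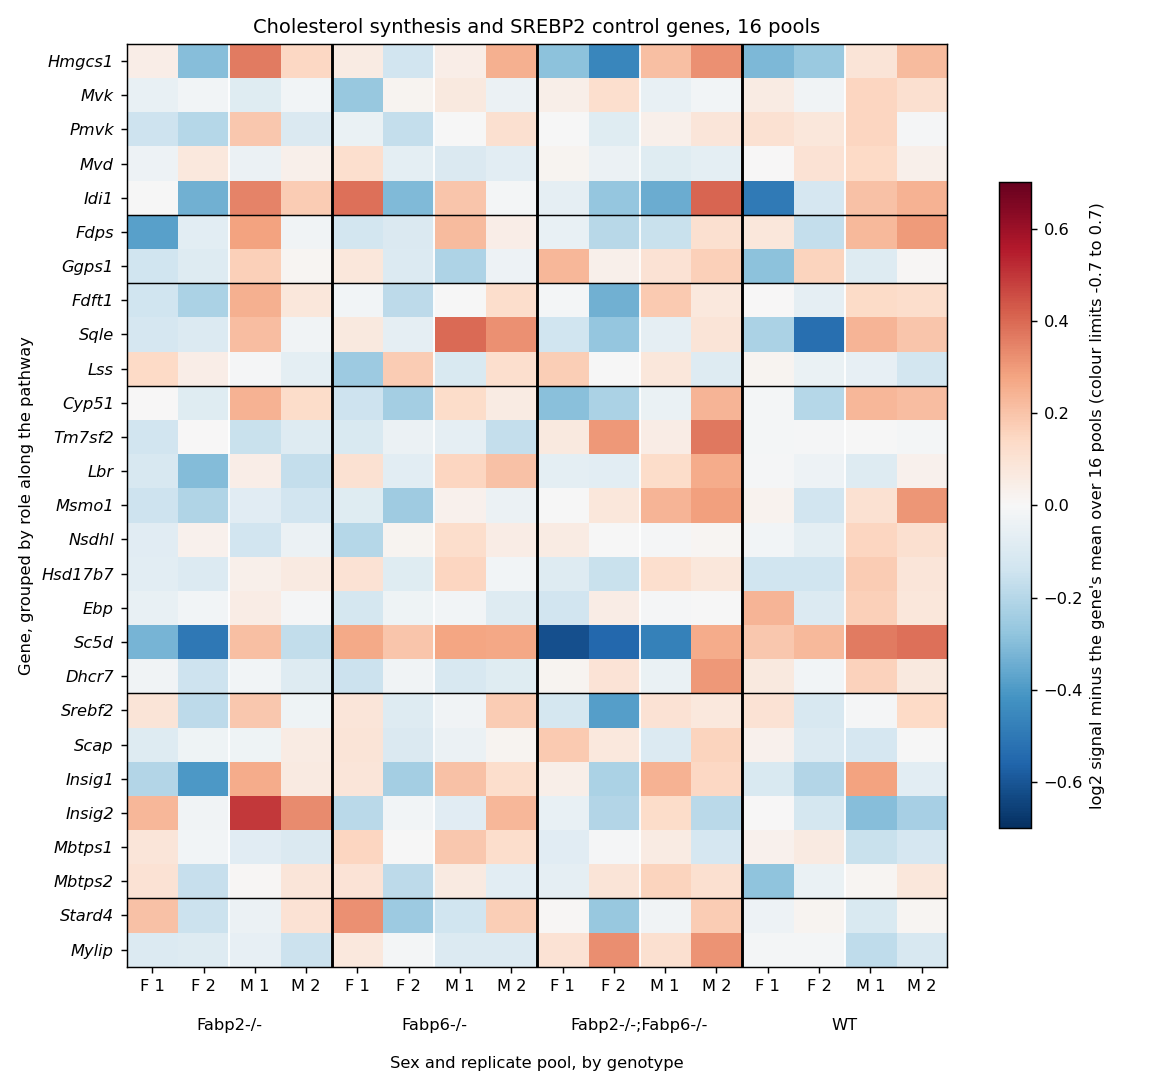
Signals of the 27 measured genes in the 16 pools, as the log2 signal minus the gene's mean over all pools, with genes grouped by their role and pools grouped by genotype, female pools left of male pools. Hmgcs1, Fdft1, Sqle, Cyp51 and Insig1 are blue or pale in most female columns, and Sc5d is darkest blue in Fabp2-/-;Fabp6-/- females, at 7.77 and 7.83.

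At the entry of the pathway stands Hmgcs1, the cytosolic synthase that makes HMG-CoA. Its signals were 9.03 and 8.69 in Fabp2-/- females against 9.35 and 9.13 in Fabp2-/- males, and 9.04 and 8.85 in Fabp6-/- females against 9.03 and 9.23 in Fabp6-/- males. In Fabp2-/-;Fabp6-/- mice they were 8.70 and 8.53 in females against 9.20 and 9.30 in males, and in WT mice 8.67 and 8.73 in females against 9.07 and 9.20 in males. The female pools were the low ones and overlapped the male pools in Fabp6-/- mice only. The mean difference was -0.41 (SE 0.06, adjusted p = 0.00214), and the other 3 probe sets of Hmgcs1 on 430A gave -0.42, -0.32 and -0.31, each at an adjusted p of 0.00805 or less when all probe sets were tested. Its 430B probe set differed by -0.10 and did not pass (adjusted p = 0.418). Within genotypes, Hmgcs1 was called lower at the fold threshold in Fabp2-/-;Fabp6-/- females, by 0.64 (SE 0.12, adjusted p = 0.0857), where 1 of the 27 genes and 0.0769% of all genes were called. That call ended when any 1 of the 4 pools was left out, with differences of -0.72 to -0.55.

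Idi1 isomerizes isopentenyl diphosphate. Its signals were 5.09 and 4.75 in Fabp2-/- females against 5.43 and 5.26 in males, 5.47 and 4.78 in Fabp6-/- females against 5.28 and 5.07 in males, 5.03 and 4.82 in Fabp2-/-;Fabp6-/- females against 4.74 and 5.50 in males, and 4.59 and 4.97 in WT females against 5.29 and 5.33 in WT males. The sexes separated in Fabp2-/- and WT mice and overlapped in the other genotypes, and the mean difference of -0.30 (SE 0.11) did not pass (adjusted p = 0.284). A brighter Idi1 probe set, with signals of 7.95 to 8.54, differed by -0.15. Mvk and Pmvk, the kinases of mevalonate, and Mvd, the decarboxylase after them, had differences of -0.03, -0.11 and 0.04, none of which passed.

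Fdps makes farnesyl diphosphate, the branch point to sterols, ubiquinone and prenylated proteins. It was at 8.01 and 8.32 in Fabp2-/- females against 8.67 and 8.37 in males, at 8.26 and 8.29 in Fabp6-/- females against 8.62 and 8.44 in males, at 8.34 and 8.20 in Fabp2-/-;Fabp6-/- females against 8.24 and 8.51 in males, and at 8.47 and 8.22 in WT females against 8.62 and 8.69 in WT males. Only the Fabp2-/-;Fabp6-/- pools overlapped, and the mean difference was -0.25 (SE 0.07, adjusted p = 0.0837). A further Fdps probe set, with signals of 3.07 to 3.43, had a difference of 0.02. Ggps1, which adds a further isoprene unit for protein prenylation, differed by -0.03 and did not pass.

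The steps into the sterol ring held 2 of the 9 genes. Fdft1, squalene synthase, ranged over 7.41, 7.64 and 7.75 (lowest, median and highest) in the 8 female pools and over 7.74, 7.87 and 8.0 in the 8 male pools, a difference of -0.24 (SE 0.05, adjusted p = 0.0389). Of its other probe sets, 1 differed by -0.28 and the rest by 0.06 and -0.03. Sqle, squalene epoxidase and a rate-controlling step, was at 8.10 and 8.13 in Fabp2-/- females against 8.43 and 8.19 in males, and at 8.29 and 8.16 in Fabp6-/- females against 8.62 and 8.54 in males. Its signals were 8.08 and 7.95 in Fabp2-/-;Fabp6-/- females against 8.16 and 8.31 in males, and 8.0 and 7.69 in WT females against 8.46 and 8.41 in WT males. No genotype overlapped, the gap was widest in WT mice, and the mean difference was -0.34 (SE 0.06, adjusted p = 0.00468). Sqle was also the 1 gene of the 27 called at the fold threshold in WT females against WT males, at -0.59 (SE 0.11, adjusted p = 0.0350), among 0.236% of all genes. It was no longer called without WT M replicate 1, WT M replicate 2 or WT F replicate 2, with a difference of -0.74 to -0.44 over the pools left out. Lss, lanosterol synthase, differed by 0.06, and by -0.14 and -0.08 in its other probe sets, of which none passed.

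**Figure D2:**
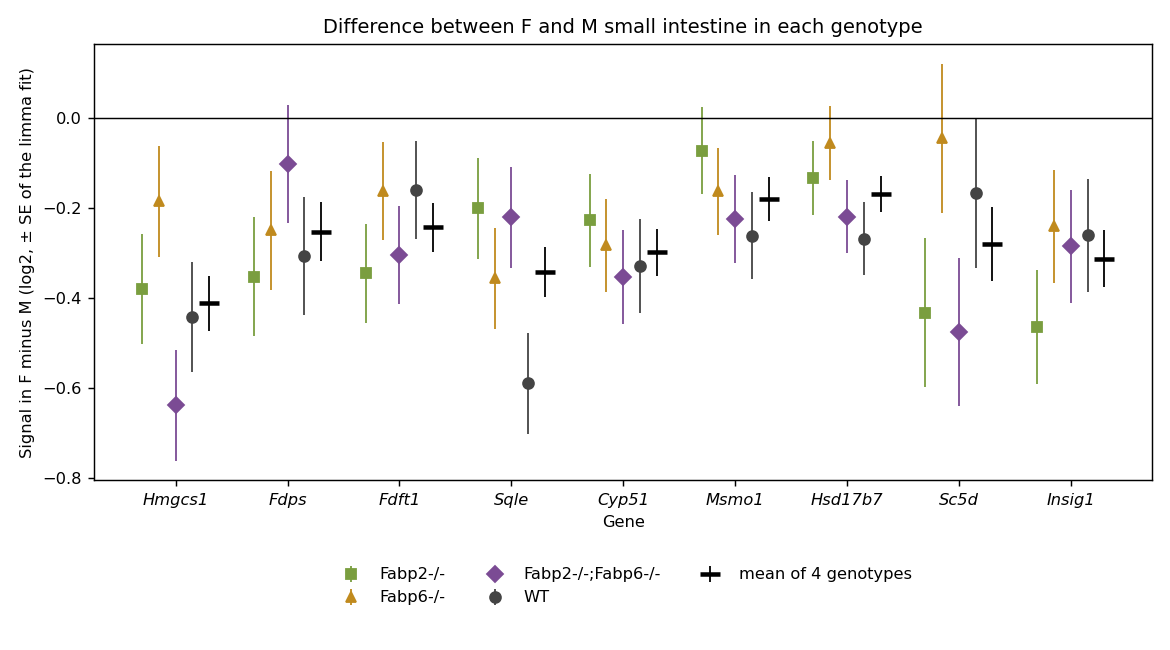
Difference in log2 signal between female and male pools (female minus male) for the 9 genes that passed in the comparison over 4 genotypes, with the standard error of the limma fit. Every symbol lies below 0, and the mean differences (black bars) run from -0.41 for Hmgcs1 to -0.17 for Hsd17b7.

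Among the later enzymes, Cyp51, the lanosterol demethylase, lay at 4.56, 4.68 and 4.86 (lowest, median and highest) in female pools and at 4.81, 5.03 and 5.10 in male pools, a difference of -0.30 (SE 0.05, adjusted p = 0.00773). A brighter Cyp51 probe set ranged over 6.50 to 6.78 in female pools against 6.77 to 7.28 in male pools and differed by -0.34, while a probe set near 4.93 differed by 0.03. Msmo1, which removes methyl groups of the sterol ring, ranged over 8.72, 8.86 and 9.04 in female pools and over 8.83, 9.03 and 9.28 in male pools (-0.18, SE 0.05, adjusted p = 0.0997). Hsd17b7, a ketone reductase of the same demethylation complex, passed by its kept 430B probe set only. This was at 6.96, 7.02 and 7.21 in female pools against 7.09, 7.19 and 7.29 in male pools (-0.17, SE 0.04, adjusted p = 0.110). Its kept 430A probe set differed by -0.07 (adjusted p = 0.680). A further Hsd17b7 probe set on 430B went the other way, at 0.08, and a further one on 430A was at -0.05. Of the further enzymes, the dehydrogenase Nsdhl, the reductases Tm7sf2, Lbr and Dhcr7 and the isomerase Ebp had differences between -0.14 and 0.02, none of which passed.

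Among the regulators, Insig1, itself a target of SREBP2, differed most. It was at 7.24 and 7.04 in Fabp2-/- females against 7.71 and 7.51 in males, at 7.53 and 7.21 in Fabp6-/- females against 7.65 and 7.57 in males, at 7.49 and 7.22 in Fabp2-/-;Fabp6-/- females against 7.69 and 7.59 in males, and at 7.34 and 7.24 in WT females against 7.73 and 7.38 in WT males. Female pools were the lower ones within each genotype, by 0.31 on average (log2 difference -0.31, SE 0.06, adjusted p = 0.0440). Insig1 was read on 430B only, and differed by -0.30 without WT F replicate 2 and by -0.34 without Fabp2-/- F replicate 1, the pools whose arrays did not match. Srebf2, the gene of SREBP2, differed by -0.16 (SE 0.06), which did not pass (adjusted p = 0.347). Scap, Insig2, Mbtps1 and Mbtps2 differed by 0.01, -0.09, 0.05 and -0.11, and Stard4, a soluble sterol carrier, and Mylip, an LXR-induced ubiquitin ligase, by -0.04 and 0.07, none of which passed. Stard4 was at 0.03 without the library labelled Fabp6-/- F replicate 2.

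**Figure D3:**
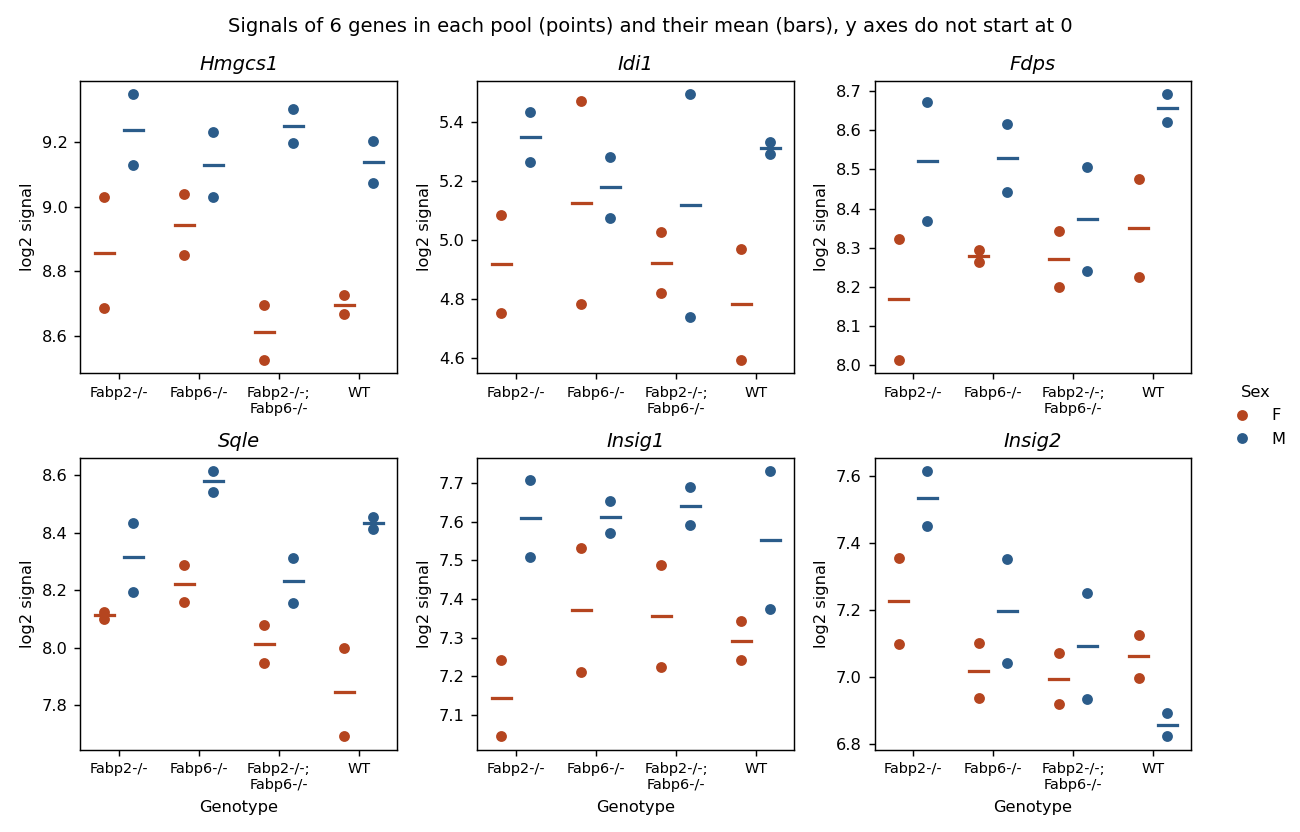
Log2 signal of Hmgcs1, Idi1, Fdps, Sqle, Insig1 and Insig2 in each pool (points) and the mean of the 2 pools (bars), by genotype, female left of male. The female points of Sqle and Insig1 lie below the male points of the same genotype throughout. In the probe set shown, Insig2 is highest in Fabp2-/- males, at 7.61 and 7.45.

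Other transcripts differed between the sexes as well. Of 10 measured crypt proliferation markers, 5 were lower in females at FDR under 0.2 and 0 were higher, with a median of -0.18, and their summed linear signal was 3212 to 4293 in female pools against 3789 to 4525 in male pools. By genotype, the proliferation markers' median was -0.18 in Fabp2-/-, -0.27 in Fabp6-/-, -0.13 in Fabp2-/-;Fabp6-/- and -0.01 in WT mice. Of 5 lymphocyte and plasma cell markers, 2 were lower in females, with a median of -0.22 and sums of 3334 to 3793 in female pools against 3473 to 5552 in male pools. Of 11 enterocyte markers, 1, lactase, was higher in females (0.38) and 0 were lower, and of 5 smooth muscle markers 1 was higher (median 0.09). Of 8 pancreas markers, 1, Ctrc, was lower, by 0.57, and the other 7 had positive differences, with a list median of 0.21. Within genotypes the pancreas median was 0.13 in Fabp2-/-, -0.11 in Fabp6-/-, -0.12 in Fabp2-/-;Fabp6-/- and 0.95 in WT mice. The part of these transcripts in the sex difference of the sterol genes was not tested.

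The promoters of the 28 genes were read for sites of their known activators. RefSeq windows of 300 bases, 250 before and 50 after the start site, were given for 24 of the 28 genes. The letters CCAAT, the box bound by NF-Y, which is known to act beside SREBP2, were present on either strand in 20 of the 24 genes, or 83.3%, and in 41.1% of all genes with a window. All 6 windowed genes of the 9 that were lower in females held CCAAT. The sterol regulatory element searched, TCACNCCAC, was present in 1 gene, Hmgcs1, at position -137, and in 1.44% of all genes, and the E-box form TCACGTGA was present in 0 of the 24 and in 1.12% of all genes. Matches are letters only, and missing letters say nothing of the factor outside these forms or windows. The windows of the 5 genes below are shown because they carry the sex difference and, for Sc5d, the response to gene disruption. They are given 5′ to 3′ on the gene's own strand (GRCm38.p6), with both motifs in capitals, the NF-Y box as CCAAT or, on the other strand, ATTGG.
Hmgcs1, chr13:119690101-119690400, + strand: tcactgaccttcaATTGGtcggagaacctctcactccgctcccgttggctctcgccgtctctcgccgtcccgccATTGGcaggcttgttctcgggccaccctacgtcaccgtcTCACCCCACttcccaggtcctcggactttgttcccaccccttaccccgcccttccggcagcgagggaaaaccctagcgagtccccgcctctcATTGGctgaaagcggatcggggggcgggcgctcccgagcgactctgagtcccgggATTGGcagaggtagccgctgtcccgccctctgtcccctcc
Cyp51, chr5:4104648-4104947, - strand: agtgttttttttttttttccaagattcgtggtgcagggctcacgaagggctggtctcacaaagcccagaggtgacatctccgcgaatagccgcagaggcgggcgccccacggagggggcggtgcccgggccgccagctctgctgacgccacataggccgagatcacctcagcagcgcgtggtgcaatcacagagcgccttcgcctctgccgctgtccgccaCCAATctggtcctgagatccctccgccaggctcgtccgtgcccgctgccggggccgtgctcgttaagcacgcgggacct
Insig1, chr5:28071162-28071461, + strand: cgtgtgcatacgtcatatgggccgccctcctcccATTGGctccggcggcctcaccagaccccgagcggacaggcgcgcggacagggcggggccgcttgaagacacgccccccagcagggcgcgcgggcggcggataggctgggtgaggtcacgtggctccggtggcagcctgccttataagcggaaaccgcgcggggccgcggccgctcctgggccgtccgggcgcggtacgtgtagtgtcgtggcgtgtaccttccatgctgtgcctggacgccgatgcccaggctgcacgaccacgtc
Msmo1, chr8:64733529-64733828, - strand: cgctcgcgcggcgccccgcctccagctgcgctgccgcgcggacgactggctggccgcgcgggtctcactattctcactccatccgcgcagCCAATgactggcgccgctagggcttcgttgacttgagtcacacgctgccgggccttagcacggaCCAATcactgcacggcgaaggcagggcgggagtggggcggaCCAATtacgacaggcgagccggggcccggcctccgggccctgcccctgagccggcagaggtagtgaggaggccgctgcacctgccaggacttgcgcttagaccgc
Sc5d, chr9:42264251-42264550, - strand: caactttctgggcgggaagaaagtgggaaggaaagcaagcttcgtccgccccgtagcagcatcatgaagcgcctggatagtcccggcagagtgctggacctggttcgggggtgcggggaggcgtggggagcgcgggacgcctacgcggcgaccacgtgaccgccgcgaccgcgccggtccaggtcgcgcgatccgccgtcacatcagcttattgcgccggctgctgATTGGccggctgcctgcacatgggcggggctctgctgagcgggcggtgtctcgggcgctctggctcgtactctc
In Hmgcs1 the capitals at -137 are the sterol regulatory element and those at -237, -176, -45 and 11 are NF-Y boxes, which it does not overlap. Cyp51 has 1 box, at -29, Insig1 has 1, at -216, Msmo1 has 3, at -160, -96 and -55, and Sc5d has 1, at -24, where -1 is the last base before the start site.

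Few of the 27 genes were called on disruption of Fabp2 or Fabp6. Against WT mice of the same sex, 1 gene was called in Fabp2-/- females (0.786% of all genes), 1 in Fabp2-/- males (0.687%), 0 in Fabp6-/- females (0.451%), 0 in Fabp6-/- males (0.484%), 1 in Fabp2-/-;Fabp6-/- females (0.929%) and 0 in Fabp2-/-;Fabp6-/- males (1.6%). Where the count was 0, limma gave an unadjusted p under 0.05 for 2 of the 27 genes in Fabp6-/- females (10.9% of all genes). It did so for 3 in Fabp6-/- males (11.6%) and 4 in Fabp2-/-;Fabp6-/- males (15.6%). The median log2 fold change of the 27 genes stayed between -0.05 and 0.02 in these 6 comparisons, which share the WT pools of each sex. In Fabp6-/- females this median was 0.06 without the library labelled Fabp6-/- F replicate 2. Without the library labelled Fabp6-/- F replicate 2, Idi1 was at 0.69 and a 430B probe set of Sc5d at 0.52 in Fabp6-/- females against WT females. A brighter Idi1 probe set was at 8.35 in the remaining Fabp6-/- female pool, against 8.13 and 8.17 in WT females. Without WT F replicate 2, that Sc5d probe set was at 0.70 in Fabp6-/- females against WT females.

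Sc5d was the gene called most often. It encodes the desaturase that introduces a ring double bond near the end of the pathway. Its signals were 8.06 and 7.88 in Fabp2-/- females, 8.65 and 8.58 in Fabp6-/- females and 7.77 and 7.83 in Fabp2-/-;Fabp6-/- females, against 8.57 and 8.61 in WT females. They were 8.59 and 8.21 in Fabp2-/- males, 8.66 and 8.66 in Fabp6-/- males and 7.91 and 8.64 in Fabp2-/-;Fabp6-/- males, against 8.75 and 8.77 in WT males. Pools without Fabp2 were low and pools with Fabp2 lay between 8.57 and 8.77, except that 1 male pool of each Fabp2-null genotype, at 8.59 and 8.64, reached that range. Relative to WT females, Sc5d was lower by 0.79 in Fabp2-/-;Fabp6-/- females (log2 fold change -0.79, SE 0.17, adjusted p = 0.0354) and by 0.62 in Fabp2-/- females (-0.62, SE 0.17, adjusted p = 0.161). In males the fold changes were -0.48 for Fabp2-/-;Fabp6-/- (adjusted p = 0.173) and -0.35 for Fabp2-/- (adjusted p = 0.618), and for Fabp6-/- they were 0.02 in females and -0.10 in males. Over both sexes Sc5d was lower in Fabp2-/-;Fabp6-/- than in WT mice by 0.64 (-0.64, SE 0.12, adjusted p = 0.00417).

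The Sc5d calls depended on single pools and on the probe set. The call in Fabp2-/-;Fabp6-/- females ended without WT F replicate 2 or Fabp2-/-;Fabp6-/- F replicate 2 (log2 fold changes of -0.82 to -0.76 over the pools left out), and the call over both sexes ended without Fabp2-/-;Fabp6-/- M replicate 1, at -0.45. The call in Fabp2-/- females ended in 10 of the 16 omissions, at -0.71 to -0.53. A second Sc5d probe set on 430A was between 6.87 and 7.11 in all pools, with a fold change of -0.01 in Fabp2-/-;Fabp6-/- mice over both sexes, and the 430B probe set gave -0.14 and did not pass. In limma's comparison of Fabp2-/-;Fabp6-/- with Fabp6-/- mice over both sexes, the 430B probe set was lower (-0.41, adjusted p = 0.0326). In Fabp2-/- against WT mice it was at -0.12 and did not pass (adjusted p = 0.609). Of the 10 tested genes on each side of Sc5d along its chromosome, 0 were called over both sexes in Fabp2-/- or Fabp2-/-;Fabp6-/- mice, and 1, Hspa8, was called lower in Fabp2-/- females (-0.53). The genes on 430A whose 8 group means ran most like those of Sc5d were Mnt, Dcaf12, Jarid2, Tfdp1 and Hook2, with Pearson's r of 0.95, 0.94, 0.93, 0.93 and 0.92 over 8 groups, as a description.

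**Figure D4:**
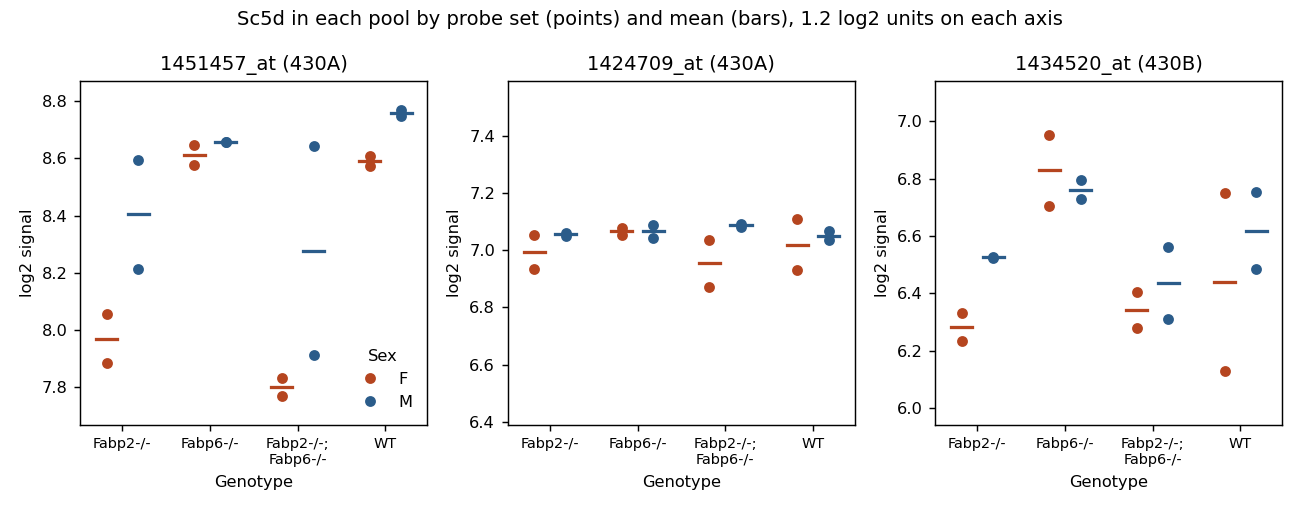
Log2 signal of Sc5d in each pool (points) and the mean of the 2 pools (bars) for its 3 probe sets, by genotype, female left of male, on axes of equal span. In the probe set with the signals listed in the text, 6 of 8 Fabp2-null pools lie at 7.77 to 8.21, while the second 430A probe set stays between 6.87 and 7.11.

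Insig2, which retains Scap in the endoplasmic reticulum and, unlike Insig1, is not driven by SREBP2, was the 1 gene called in Fabp2-/- males. Its signals were 7.35 and 7.10 in Fabp2-/- females, 6.94 and 7.10 in Fabp6-/- females and 7.07 and 6.92 in Fabp2-/-;Fabp6-/- females, against 7.12 and 7.00 in WT females. They were 7.61 and 7.45 in Fabp2-/- males, 7.04 and 7.35 in Fabp6-/- males and 7.25 and 6.93 in Fabp2-/-;Fabp6-/- males, against 6.82 and 6.89 in WT males. In this probe set the Fabp2-/- males stood above every other pool, and WT males below, and the share of all genes set apart so was not counted. The other probe sets did not place Fabp2-/- males above Fabp2-/- females. One was at 6.27 and 6.25 in females against 6.07 and 6.06 in males, the other at 8.03 and 7.86 against 7.96 and 8.04. The fold change in Fabp2-/- males was 0.68 (SE 0.13, adjusted p = 0.0258), and the other probe sets of Insig2 gave 0.48 and 0.43 there, at adjusted p = 0.121 and 0.130 among all probe sets. In Fabp2-/- females the fold change was 0.17 (adjusted p = 0.846), and the other probe sets gave 0.44 and 0.31, at adjusted p = 0.226 and 0.451. For the first probe set, the difference between the sexes in this response, -0.51 (SE 0.18), did not pass (adjusted p = 0.939), and in the other probe sets it was -0.05 and -0.12. The call ended with the brightest Insig2 probe set in its place, and without WT M replicate 1 or Fabp2-/- M replicate 1, with fold changes of 0.59 to 0.76 over the pools left out.

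Over both sexes, 0 of the 27 genes were called in Fabp2-/- (0.676% of all genes), 0 in Fabp6-/- (0.363%) and 1, Sc5d, in Fabp2-/-;Fabp6-/- mice (0.967%). At FDR under 0.2 with no fold threshold, 3 genes passed in Fabp2-/- mice, where 7.43% of all genes did. These were Insig2 (0.42, adjusted p = 0.0231), Sc5d (-0.49, adjusted p = 0.0445) and Msmo1 (-0.22, adjusted p = 0.167). In Fabp6-/- mice, with all pools, Sqle alone passed (0.26, adjusted p = 0.111), where 7.94% of all genes did. Without the library labelled Fabp6-/- F replicate 2, Sqle was at 0.29, Mvk at -0.20 and Mbtps1 at 0.20. With it they were at 0.26, -0.13 and 0.16. In Fabp2-/-;Fabp6-/- mice Sc5d, Mylip (0.29, adjusted p = 0.0222) and Tm7sf2 (0.21, adjusted p = 0.164) passed, where 14.3% of all genes did. Mylip was between 8.08 and 8.31 in the 4 Fabp2-/-;Fabp6-/- pools and between 7.80 and 7.97 in the 4 WT pools. The share of all genes with pools set apart in this way was not counted. Unadjusted p was under 0.05 for 3 genes in Fabp2-/- and 6 in Fabp6-/- mice.

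Transcripts of other cells and of the daily clock moved with these groups. In Fabp2-/- against WT mice over both sexes, 6 of 10 proliferation markers were lower at FDR under 0.2 (median -0.25), and of 12 clock genes 1 was higher and 5 were lower. Of 5 smooth muscle markers, 3 were lower in Fabp6-/- mice (median -0.38), where Sqle was higher. Of the 6 stomach markers, 4 were called higher in Fabp6-/- (median 0.97) and 4 in Fabp2-/-;Fabp6-/- mice (median 0.85). Of 8 pancreas markers, 1 was called higher in Fabp2-/- males, the group in which Insig2 was called. The list median was 0.71 there, and the enzyme Ctrc was higher by 3.47. In Fabp2-/-;Fabp6-/- mice Cd8a, a T cell marker, was lower by 0.69, beside the lower Sc5d. Their part in the sterol gene results was not tested.

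The effect of losing both binding proteins was set against the sum of the single losses. By the fold threshold this non-additivity term called 0 of the 27 genes, against 1.55% of all genes. An unadjusted p under 0.05 was found for 6 of the 27 and for 13.9% of all genes. At FDR under 0.2 alone and with all pools, 5 of 27 passed, against 6.14% of all genes. Msmo1, Tm7sf2 and Dhcr7, 3 enzymes of the late sterol steps, had positive terms of 0.45, 0.38 and 0.32, and Sqle and Insig2 had negative terms of -0.35 and -0.48.

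**Figure D5:**
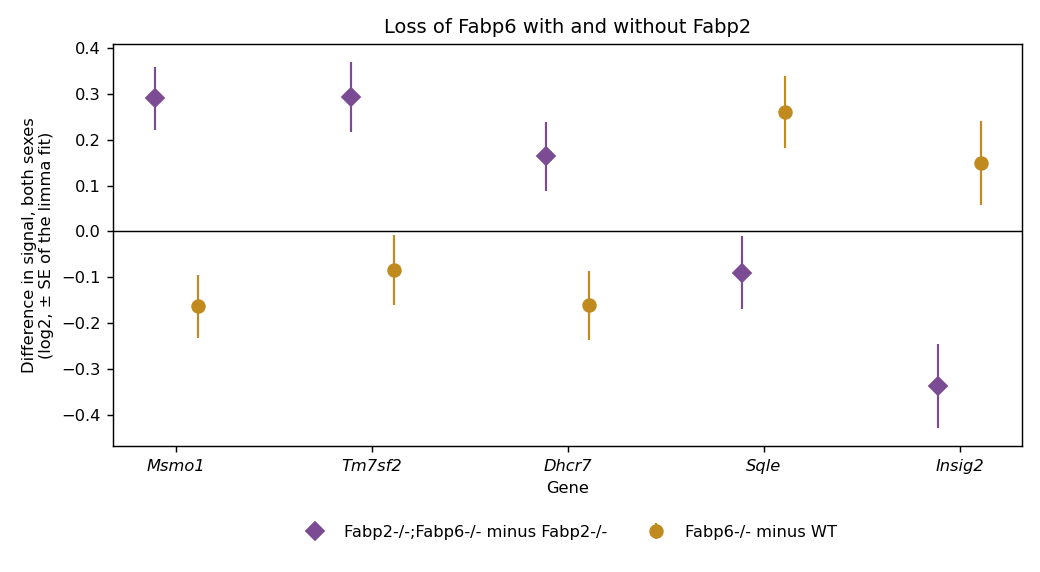
Difference in log2 signal on loss of Fabp6, over both sexes, in mice without Fabp2 (Fabp2-/-;Fabp6-/- minus Fabp2-/-, diamonds) and with Fabp2 (Fabp6-/- minus WT, circles), with the standard error of the limma fit. For all 5 genes the 2 differences lie on opposite sides of 0, as for Msmo1 at 0.29 and -0.16 (-0.12 without the library labelled Fabp6-/- F replicate 2).

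Neighbouring branches of the pathway were read as whole lists. Of 13 measured genes for cofactors, acetyl-CoA supply and sterol sensing, 2 rose and 3 fell in Fabp2-/- mice over both sexes at FDR under 0.2, where 7.43% of all genes passed, and Marchf6, a ubiquitin ligase known to degrade squalene epoxidase, was called lower by its 430B probe set (-0.72, adjusted p = 2.21e-05), while its 430A probe set was higher (0.21, adjusted p = 0.169). In the non-additivity term, where 6.14% of all genes passed, 5 of the 13 were positive and 1 was negative at FDR under 0.2, the negative one being Syvn1, a ubiquitin ligase of the endoplasmic reticulum (-0.61). The 430B probe set of Marchf6 was positive there, at 0.71 (adjusted p = 0.00239), as was Cyb5a, the cytochrome b5 that feeds electrons to sterol desaturation, at 0.50 (adjusted p = 0.00507). Of 12 genes of the isoprenoid branch, 2 rose and 2 fell in Fabp2-/-;Fabp6-/- mice over both sexes, where 14.3% of all genes passed, and Nus1, a subunit of the dolichol-forming transferase, was called higher by its 430A probe set (0.52, adjusted p = 0.00136), while its 430B probe set was lower in Fabp2-/- mice (-0.32, adjusted p = 0.0348). Of 8 genes of sterol uptake and the LXR pathway, 4 rose and 1 fell in those mice, and in males the cholesterol exporters Abca1 (0.70, adjusted p = 0.00159) and Abcg8 (0.68, adjusted p = 0.0170) were called higher. Between the sexes over 4 genotypes, 0 genes of these 3 lists passed in limma's test, in either direction.

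In the sex comparisons not yet named, 0 of the 27 genes were called in Fabp2-/- females against males (0.0824% of all genes) and 0 in Fabp6-/- females against males (0.407%). An unadjusted p under 0.05 was found for 7 and 2 of the 27, against 8.16% and 7.19% of all genes. Left out in turn, Fabp2-/- F replicate 1 was the pool whose absence brought 2 calls in Fabp2-/- mice, Hmgcs1 (-0.55, adjusted p = 0.161) and Insig1 (-0.56, adjusted p = 0.161). Without Fabp2-/-;Fabp6-/- M replicate 1, Sc5d was called lower in Fabp2-/-;Fabp6-/- females than in males (-0.84, adjusted p = 0.0287).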

How the data were processed

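The deposited log2 signals of 16 arrays of type 430A and 16 of type 430B were used as the authors made them, with robust multi-array averaging (RMA) within each array type. Probe sets were named from the platform annotation, and those of several genes were left out. Per array type, 1 probe set per gene was kept, that of largest interquartile range, and 8 group means were fitted with lmFit and eBayes of limma 3.58.1 (R 4.3.3). There were 8 residual degrees of freedom, with Benjamini-Hochberg adjustment per array type and comparison, over 18 comparisons. Calls needed an FDR under 0.2 together with a log2 change beyond 0.5 in either direction, as in the study's methods. Genes on both array types are given by the probe set of larger interquartile range. Genes named in full were those called in any comparison and the 3 uncalled genes with the widest range of group means, and others are given by ranges. The members and lists were chosen with earlier results of these data known. The labels describe pools of 2 mice but no separate litters or days, so p-values measure the spread between these pools, whose number limits the precision. Scripts were tested on simulated data. Alternatives covered the choice of probe set, filters, prior, cyclic loess, the replicate block, the thresholds and each pool left out. Promoters were RefSeq sequences of GRCm38.p6.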

Additional observations from a re-analysis of the deposited data

Results flagged for a closer look

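For 5 genes the difference on loss of Fabp6 was tested to depend on Fabp2 (limma, over both sexes, adjusted over all genes, FDR under 0.2). The term for Msmo1 was 0.45 (SE 0.10, adjusted p = 0.0193), as loss of Fabp6 gave 0.29 in mice without Fabp2 and -0.16 in mice with it. Tm7sf2 had a term of 0.38 (SE 0.11, adjusted p = 0.0885), with 0.29 in mice without Fabp2 and -0.08 in mice with it. Dhcr7 had a term of 0.32 (SE 0.11, adjusted p = 0.152), with 0.16 in mice without Fabp2 and -0.16 in mice with it. Insig2 ran the other way, at -0.48 (SE 0.13, adjusted p = 0.0664), with -0.34 in mice without Fabp2 and 0.15 in mice with it. Sqle also ran that way, at -0.35 (SE 0.11, adjusted p = 0.138), with -0.09 in mice without Fabp2 and 0.26 in mice with it. Without the library labelled Fabp6-/- F replicate 2 the terms were 0.41, 0.39, 0.36, -0.44 and -0.38 for Msmo1, Tm7sf2, Dhcr7, Insig2 and Sqle. The term of Mvk was 0.27 without that library and 0.19 with it. The crypt proliferation markers had a median term of 0.26, with 4 of 10 positive at FDR under 0.2, and the smooth muscle markers one of 0.36, with 3 of 5 positive, and their part in these terms was not tested.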

How the results depend on the processing

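The 15 fold changes of called or passing genes tested under the alternatives kept their sign. Among genes that did not pass, signs did change, as for Stard4 between the sexes (0.03 without the library labelled Fabp6-/- F replicate 2, against -0.04) and Lss (-0.14 with its brightest probe set, against 0.06). Of the comparison of female with male mice over 4 genotypes, the count at FDR under 0.2 was 9 and became 5 at FDR under 0.05. With pools left out in turn it was 5 to 12, and 5 without Fabp2-/- M replicate 1 or Fabp6-/- M replicate 1. Fdps, Msmo1, Hsd17b7 and Sc5d lost their call there under 5, 7, 9 and 13 of 28 alternatives. With the brightest probe set of each gene, the counts of called genes became 0 in Fabp2-/- males against WT males and 0 between the sexes in Fabp2-/-;Fabp6-/- mice. Between the sexes in Fabp2-/-;Fabp6-/- mice it was also 0 at FDR under 0.05. In Fabp2-/- females against WT females it was 0 at FDR under 0.05 and 0 with an intensity trend and robust prior. Fitting only WT mice gave 2 calls between the sexes, Idi1 (-0.53) beside Sqle. Testing all probe sets gave 1 non-additivity call, another probe set of Insig2 (-0.63). With no fold threshold the counts were 2 in Fabp2-/-;Fabp6-/- males, 3, 1 and 3 over both sexes in Fabp2-/-, Fabp6-/- and Fabp2-/-;Fabp6-/- mice, 9 between the sexes and 5 for non-additivity. With pools left out in turn, called counts were 0 to 2 in Fabp6-/- females against WT females and between the sexes in Fabp2-/- mice. They were 0 to 1 in Fabp2-/- females, Fabp2-/- males, Fabp2-/-;Fabp6-/- females and Fabp2-/-;Fabp6-/- males against WT, in Fabp2-/- and Fabp2-/-;Fabp6-/- mice over both sexes, between the sexes in WT and in Fabp2-/-;Fabp6-/- mice, and for non-additivity. The remaining comparisons stayed at 0. The cause of these changes was not tested. Without the library labelled Fabp6-/- F replicate 2, the fold change of Sqle in Fabp6-/- mice over both sexes was 0.29, against 0.26 with it. On 430A, replicate 1 minus replicate 2 had correlations of -0.262 to 0.344 over 28 pairs of groups, 1 over 0.1, and 430B was not read in this way. Insig1, on 430B, was lower in replicate 2 than in replicate 1 of every group. The replicate block changed none of the counts, at 9 for the sexes. The precision is limited by the 2 pools per group, and signal over background was not given with these values.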
